A study of Mus musculus with 5 samples.

Results

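Ptbp1, Ptbp2, Nova1, Nova2, Elavl2, Elavl3, Elavl4, Rbfox1, Rbfox2 and Rbfox3 encode RNA-binding proteins that control splicing, and in part the stability, of transcripts in developing neurons. They were taken from a list of names that uses no measured value, although earlier results of these data were known when it was drawn up, and every array probe whose transcript accession led to these names was read, which gave 10 of the 19897 genes and 18 of the 26300 probes that matched a gene symbol. PTBP1 is known as a repressor of neuronal exons in cells that are not neurons, and the loss of PTBP1 with the gain of its neural relative PTBP2 is a known step of neuronal differentiation, as PTBP1 causes skipping of an exon that the Ptbp2 transcript needs to escape decay. NOVA and RBFOX proteins promote or repress neuronal exons according to where they bind beside them, and the neuronal ELAVL proteins, also called Hu proteins, bind sequences rich in U and A and are used as markers of young neurons. The NeuN antigen of mature neurons is RBFOX3.

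Total RNA came from a wild-type male mouse embryonic stem (ES) cell line and from embryoid bodies, the cell aggregates it forms on the way to motor neurons, with 1 array for each of 5 time points and no replicate. ES cells had no treatment, Day2 embryoid bodies had 8 h of retinoic acid (RA), Day3 had 1 day, Day4 had 2 days, and the Day7 sample had 5 days. The treatment note gives RA together with Sonic hedgehog (Shh) from day 2 to day 5, which is a shorter span than the 5 days in the Day7 label, and the study's paper names the hedgehog agonist SAG. The Day7 sample is labelled motor neurons by its source and embryoid bodies by its tissue, no sorting is named, and every array read bulk RNA of whole cultures.

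A level here is the log2 of the background-subtracted fluorescence intensity of a probe, averaged over its spots and quantile-normalized over the 5 arrays, and a change is the difference of levels between 2 arrays. Changes were compared with a rule of size, at least 2-fold, and no test was possible with 1 array per time point. Each gene was represented by its brightest probe over the 5 arrays. This probe was not the brightest on each array. The other Nova1 probe was brighter at Day3, Day4 and Day7, and the other Rbfox2 probe on each array before Day7. Where the scanner software did not mark a probe as well above background on 1 of the 2 arrays, its level there was raised to the lowest level of any probe so marked on that array and the change is given as "at least". No fold is given where both arrays were dim or where this floor left nothing of the change. Probes differ in brightness for the same amount of RNA, so levels of different probes were not compared as amounts, and the summed signals and brightest genes given for marker lists only describe what was read. A bound holds for its own scaling and was smaller with the normexp background model, which adds an offset to every signal.

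The Day2 array stood apart, with 86.7% of its mouse probes well above background against 59.2% for ES, 57.5% for Day3, 65.7% for Day4 and 62.4% for Day7. Of the ERCC probes, which carry spike-in sequences foreign to the mouse, 66.7% passed the same mark on the Day2 array against 8.33% for ES. Marks and dim levels of Day2 are thus not comparable with those of the other arrays, and each step into or out of Day2 rests on it. Day7 alone lay on another slide, so in any comparison with Day7 the slide cannot be told apart from the time point, and ES to Day4 was added, after the data had been seen, as the longest span within 1 slide. The median SD between repeat spots of a probe was 0.07 log2 for ES, 0.11 for Day2, 0.07 for Day3, 0.07 for Day4 and 0.06 for Day7, which measures spots within an array and not samples. Each array had 0 saturated mouse spots.

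The choice of scaling moved whole arrays. From Day4 to Day7 the median change of all genes was -0.12 with quantile normalization, -0.25 when each array was shifted to its 75th percentile, and 1.06 without normalization. The median from ES to Day7 was -0.07, -0.35 and 0.01 under the same 3 scalings, and from ES to Day4 it was 0.05, -0.11 and -1.06. Without normalization the medians of the other steps were 0.27 for ES to Day2, -0.81 for Day2 to Day3 and -0.48 for the step after it, against 0.00, 0.00 and -0.01. Among genes past 2-fold, the share that rose from ES to Day2 was 48.7%, but 74.9% with the 75th percentile and 85.4% without normalization. For Day2 to Day3 this share was 62.6%, 25.5% and 3.50%, so the general direction of both steps around Day2 was set by the scaling. Without normalization the rising share went from 42.6% to 20.1% for Day3 to Day4, from 49.9% to 94.0% for Day4 to Day7, and from 54.1% to 9.53% for ES to Day4. The levels the authors deposited gave shares close to those of the 75th percentile, 74.8% for ES to Day2 and 25.5% for Day2 to Day3. Changes of the 10 genes are therefore given with the scalings that ended a call or turned a direction.

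All 10 genes were well above background on the ES, Day2, Day4 and Day7 arrays by their brightest probe, and 9 were on Day3, where Rbfox1 was not. Over all genes on the array this share was 73.1% for ES, 91.7% for Day2, 72.7% for Day3, 77.6% for Day4 and 76.2% for Day7. From ES to Day7, 7 of the 10 genes rose at least 2-fold against 24.8% of the 15839 genes with a value, and 0 fell against 24.4%. The 7 were Ptbp2, Elavl2, Elavl3, Elavl4, Rbfox1, Rbfox2 and Rbfox3. The counted Rbfox2 probe was the brighter of its pair on the Day7 array alone, so the rise itself decided its choice. The other Rbfox2 probe changed by 0.40. In bulk RNA, fewer cells of a type and less RNA per cell cannot be told apart, and this holds for every change given here. The last step, Day4 to Day7, held the same 7 rises against 18.1% of 16083 genes, and 1 fall, of Ptbp1, against 18.1%, or 9 rises and 0 falls without normalization, where 52.1% of all genes rose and 3.33% fell. The median change of the 10 genes in that step was 3.04 against -0.12 over all genes, and from ES to Day7 it was 2.49 against -0.07.

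Before Day7 at most 4 of the 10 genes passed the rule in a comparison. From ES to Day2, 0 rose against 10.7% of all genes and 1 fell, Rbfox1, against 11.3%. From Day2 to Day3, 0 rose against 13.0% and 4 fell, Nova1, Nova2, Elavl2 and Elavl3, against 7.76%. Without normalization the falls of this step were 6, against 39.4% of all genes, and with the mean over probes they were 2, against 7.06%. The array these falls start from is the one that stood apart. From Day3 to Day4, 1 rose, Elavl3, against 3.62%, and 0 fell against 4.88%. On the slide shared by ES and Day4, 1 of the 10 rose, Elavl4, against 17.0% of all genes, and 3 fell, Nova1, Elavl2 and Rbfox3, against 14.4%, or 0 and 5 without normalization, where 5.55% of all genes rose and 52.7% fell. The median of the 10 genes over that span was -0.29 against 0.05 over all genes. With the mean over probes this median was 0.17 and the falls were 2, against 13.2% of all genes. No general direction is therefore given for the 10 genes over ES to Day4.

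**Figure D1:**
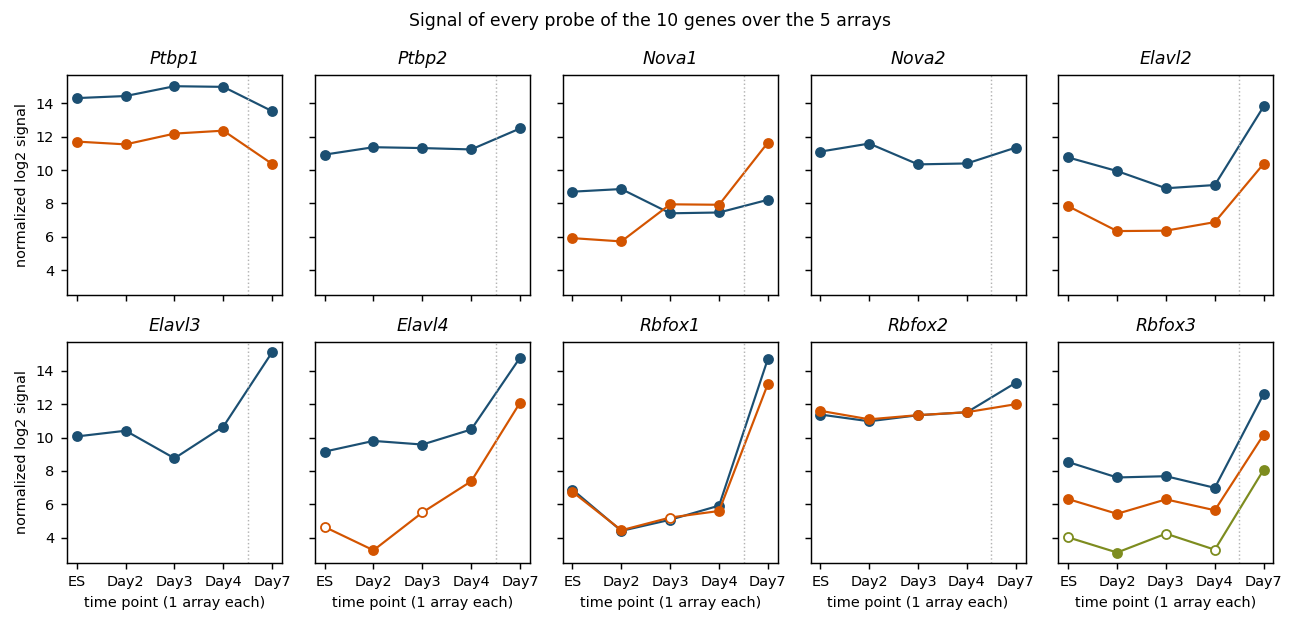
Normalized log2 signal (vertical axis) of every probe of the 10 genes over the 5 time points (horizontal axis, 1 array each), with a line per probe, white points where the probe was not well above background and a dotted line between the arrays of the slide shared by ES to Day4 and the Day7 slide. Elavl2, Elavl3, Elavl4, Rbfox1 and Rbfox3 rose into Day7 by every probe and under every scaling, Ptbp1 fell into Day7 by both probes and under every scaling, and the pair of Nova1 probes moved apart.

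Ptbp1 encodes the repressor of neuronal exons. Its brightest probe read 14.32 in ES cells, 14.44 at Day2, 15.03 at Day3, 14.99 at Day4 and 13.53 at Day7 (normalized log2). Day3 and Day4 were the highest, with a change of -0.04 from Day3 to Day4, and Day7 was the lowest. The second probe read 11.71, 11.54, 12.19, 12.37 and 10.37, again with its top at Day3 and Day4 and its lowest level at Day7. Into Day7 the brightest probe fell by 1.46 log2 from Day4 (2.75-fold) and the second by 2.00 (3.99-fold). Without normalization, where all genes together rose by 1.06, these changes were -0.31 and -0.63, below 2-fold but in the same direction. From ES to Day7 the brightest probe fell by 0.79 (1.72-fold), which missed the rule of size, and the second fell by 1.34 (2.54-fold), which passed it. The brightest probe passed it too with the 75th percentile (-1.45), in the deposited levels (-1.45), without normalization (-1.09), and as the mean of both probes (-1.06). Before the fall, from ES to Day4, the probes changed by 0.67 and 0.65, but by -0.78 and -0.58 without normalization, so no direction is given for that span. The ES and Day2 levels did not keep their order, with 0.12 between them by the brightest probe and -0.17 by the second.

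Ptbp2 encodes the neural relative that PTBP1 holds down. Its only probe read 10.93 in ES cells, 11.37 at Day2, 11.32 at Day3, 11.24 at Day4 and 12.50 at Day7. Day7 was the highest, ES the lowest, and the steps between Day2, Day3 and Day4 were small, with Day2 to Day3 changing sign between scalings (-0.05 by quantiles, 0.04 with the 75th percentile). Ptbp2 rose from Day4 to Day7 by 1.26 (2.39-fold), and 2343 of the 16083 genes rose more. Over ES to Day7 it rose by 1.57 (2.97-fold), and 2663 of 15839 genes rose more. Both rises held past 2-fold under every scaling, with the smallest at 1.11 for Day4 to Day7 and 1.30 for ES to Day7, each with the 75th percentile. Between ES and Day4 the change was 0.31, or -0.76 without normalization.

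The difference between the changes of Ptbp2 and Ptbp1 does not depend on a shift of whole arrays. Ptbp2 gained 2.72 log2 on Ptbp1 from Day4 to Day7 (6.59-fold), with 2.70 the lowest and 2.99 the highest value over the other scalings and the mean of probes. Over ES to Day7 the gain was 2.36 (5.12-fold), between 2.28 and 2.75. Before Day7 the steps were smaller and of both signs, with 0.32 from ES to Day2 (between 0.19 and 0.54), -0.64 from Day2 to Day3 (between -0.67 and -0.53) and -0.36 over ES to Day4 (between -0.42 and 0.02). The largest gain of Ptbp2 on Ptbp1 in a single step was thus that from Day4 to Day7, the step across slides, and it shows that the 2 genes changed unequally, not which of them changed.

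Nova1 encodes a neuronal splicing regulator with KH domains, and its 2 probes gave opposite results although both matched through the same transcript accession. The brightest probe read 8.71 in ES cells, 8.87 at Day2, 7.41 at Day3, 7.46 at Day4 and 8.22 at Day7. This probe was high in ES and Day2 and low at Day3 and Day4, and came back in part at Day7. The other probe read 5.92, 5.72, 7.95, 7.92 and 11.65, low in ES and Day2, higher at Day3 and Day4 and highest at Day7. Between ES and Day7 the brightest probe changed by -0.49 and the other rose by 5.73 (53.2-fold). Within 1 slide, from ES to Day4, the brightest fell by 1.25 (2.38-fold, or -0.93 with the normexp background model) while the other rose by 2.00 (4.0-fold). From Day2 to Day3 the brightest fell by 1.46 (2.74-fold) and the other rose by 2.23 (4.68-fold, or 0.40 without normalization). Both probes went up from Day4 to Day7, by 0.76 (1.70-fold, or 2.07 without normalization) and by 3.73 (13.3-fold). The mean of the 2 probes changed by 2.62 from ES to Day7, by 0.38 from ES to Day4 and by 0.39 from Day2 to Day3.

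Such a gap between the probes of a gene was rare. For ES to Day7 the Nova1 probes differed by 6.22 log2 in their change, against a median of 0.64 and a 90th percentile of 2.05 over the 3491 genes with at least 2 probes that were well above background both in ES cells and at Day7. Of those genes 9 had a larger gap, and 65 had probes past 2-fold in opposite directions. For ES to Day4 the Nova1 gap was 3.25, and 8 of 3618 genes had a larger one. Which probe reads the Nova1 transcripts of these cells was not tested, and no direction is given for Nova1 before Day7.

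Nova2, the relative of Nova1 that is prominent in the forebrain, was read by a single probe with 11.11 in ES cells, 11.59 at Day2, 10.34 at Day3, 10.40 at Day4 and 11.35 at Day7. Day3 and Day4 were the low arrays, and ES, Day2 and Day7 were the high ones. From Day2 to Day3 Nova2 fell by 1.25 (2.38-fold), and it fell under every scaling. Between ES and Day4 it fell by 0.71, or -1.79 without normalization, and from Day4 to Day7 it rose by 0.95 (1.94-fold), or 2.21 without normalization. Over the whole course Nova2 ended 0.24 above its ES level, with 0.06 and 0.42 as the extremes over the scalings, less than the median gap of 0.64 between probes of a gene.

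Elavl2 encodes HuB, which is made in neurons and in germ cells. Its brightest probe read 10.76 in ES cells, 9.94 at Day2, 8.91 at Day3, 9.11 at Day4 and 13.82 at Day7. Its level thus went down to a low at Day3 and Day4 and was highest at Day7. The second probe read 7.84, 6.34, 6.37, 6.88 and 10.38, with its low already at Day2 and Day3. From ES to Day4 the brightest probe fell by 1.65 (3.15-fold) and the second by 0.95 (1.94-fold), and both fell under every scaling. The step from Day2 to Day3 was -1.03 (2.04-fold) by the brightest probe, -0.98 with the normexp model, and 0.024 by the second probe. The second probe fell by 1.01 in this step with the 75th percentile and in the deposited levels, and by 1.75 without normalization, and the cause was not tested. The last step, Day4 to Day7, took the brightest probe up by 4.72 (26.3-fold) and the second by 3.50 (11.3-fold). From ES to Day7 the rises were 3.06 (8.35-fold) and 2.55 (5.84-fold), smaller than from Day4 since Elavl2 started from a higher level in ES cells.

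Elavl3 encodes HuC, a common marker of neurons that have left the cell cycle. Its only probe read 10.07 in ES cells, 10.41 at Day2, 8.76 at Day3, 10.66 at Day4 and 15.13 at Day7. Day3 was the lowest array and Day7 the highest. Elavl3 fell by 1.65 from Day2 to Day3 (3.15-fold) and then rose by 1.90 into Day4 (3.74-fold), each past 2-fold under every scaling. It was the only gene of the 10 to rise past 2-fold from Day3 to Day4 by its brightest probe under quantile normalization. Elavl3 then rose by 4.47 from Day4 to Day7 (22.2-fold), and 299 of 16083 genes rose more. Compared with ES cells, Day7 was higher by 5.06 (33.4-fold), and 339 of 15839 genes rose more. Between ES and Day4 it changed by 0.59, or -0.42 without normalization.

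Elavl4 encodes HuD, which binds transcripts such as that of Gap43. Its brightest probe read 9.16 in ES cells, 9.80 at Day2, 9.59 at Day3, 10.49 at Day4 and 14.80 at Day7. Elavl4 was lowest in ES cells and highest at Day7. Between ES and Day4 it rose by 1.33 (2.51-fold), or 0.37 without normalization, and of the 10 genes it alone rose past 2-fold over that span by its brightest probe. From Day3 to Day4 it rose by 0.90 (1.87-fold), just short of the rule, and as the mean of its probes it passed it with 1.39. From Day4 to Day7 it rose by 4.31 (19.8-fold) and from ES to Day7 by 5.64 (49.8-fold), which 236 of 15839 genes exceeded. The second Elavl4 probe read 4.64, 3.24, 5.51, 7.38 and 12.10 and was not well above background on the ES and Day3 arrays. By it Elavl4 rose at least 3.66-fold from Day3 to Day4 and at least 6.67-fold from ES to Day4, but with the normexp model by at least 0.80 and 0.96 log2, below 2-fold. From Day4 to Day7 this probe rose 26.3-fold, and from ES to Day7 at least 7.46 log2, or at least 5.05 with normexp. Both probes of Elavl4 were thus higher at Day4 than in ES cells under every scaling, with a much larger rise after Day4.

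Elavl3 and Elavl4 were also compared with each other. Elavl3 and Elavl4 differed by 0.16 in their change from Day4 to Day7 (between -0.04 and 0.23 over the alternatives). From Day2 to Day3 Elavl3 lost 1.44 log2 on Elavl4, between -2.68 and -1.27. Elavl1, the broadly expressed relative HuR, chosen here after its values had been seen, read 14.98 in ES cells, 14.97 at Day2, 14.85 at Day3, 14.87 at Day4 and 13.87 at Day7 by its brightest probe. This fall of 1.11 from ES to Day7 (2.16-fold) went opposite to the neuronal Elavl genes, but the mean of its probes rose by 1.15, so no direction is given for Elavl1.

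Rbfox1 encodes a splicing factor of neurons, heart and skeletal muscle. Its brightest probe read 6.88 in ES cells, 4.41 at Day2, 5.08 at Day3, 5.92 at Day4 and 14.74 at Day7. Only Day7 was high, and on Day3 the probe was not well above background. The second probe read 6.75, 4.45, 5.21, 5.60 and 13.23, with the same single high array. Rbfox1 rose from Day4 to Day7 by 8.81 (450-fold) by the brightest probe and by 7.63 (198-fold) by the second, and 3 of 16083 genes rose more than the brightest probe did. With the normexp model, which adds an offset that compresses dim levels, these rises were 7.52 and 6.06. Compared with ES cells, Day7 was higher by 7.85 (231-fold) and by 6.49 (89.6-fold), and 45 of 15839 genes exceeded the former. The fall from ES to Day2 was 2.47 (5.56-fold), but it was -0.93 with the 75th percentile, -0.70 without normalization and 0.00 with a floor taken from the ERCC probes, so the call ended under these alternatives, and the cause was not tested. Leaving that array aside, from ES to Day4 the probes fell by 0.96 (1.95-fold) and by 1.15 (2.21-fold), and they fell under every scaling, by the least with normexp (-0.40 and -0.50).

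Rbfox2 encodes the member of the family that is made in most tissues. Its brightest probe read 11.39 in ES cells, 10.98 at Day2, 11.34 at Day3, 11.52 at Day4 and 13.29 at Day7. ES, Day3 and Day4 lay close together, Day2 was slightly lower and Day7 was the highest. The second probe, matched through another transcript accession, read 11.61, 11.10, 11.35, 11.53 and 12.01, in nearly the same order. From Day4 to Day7 the brightest probe rose by 1.77 (3.41-fold) and the second by 0.48 (1.39-fold). From ES to Day7 the rises were 1.91 (3.75-fold) and 0.40 (1.32-fold), so the call of Rbfox2 held by the brightest probe under every scaling and ended with the second probe. From ES to Day4 the changes were 0.14 and -0.08, and 0.14 turned to -0.04 with the 75th percentile and to -0.99 without normalization.

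Rbfox3 encodes NeuN. Its brightest probe read 8.53 in ES cells, 7.61 at Day2, 7.69 at Day3, 6.99 at Day4 and 12.62 at Day7. Day4 was the lowest and Day7 the highest. The second probe read 6.31, 5.43, 6.30, 5.64 and 10.18, and the dimmest read 4.02, 3.11, 4.24, 3.28 and 8.08, well above background only on the Day2 and Day7 arrays. Rbfox3 rose from Day4 to Day7 by 5.63 (49.5-fold) by the brightest probe, by 4.54 (23.2-fold) by the second and at least 16.3-fold by the dimmest. Over ES to Day7 it rose by 4.08 (17.0-fold), by 3.87 (14.6-fold) and at least 14.9-fold. With the normexp model the rises over ES to Day7 were 3.95, 2.93 and at least 2.04 log2, so all 3 probes rose past 2-fold, by amounts that depended on the background model. From ES to Day4 the brightest probe fell by 1.55 (2.92-fold) and the second by 0.67 (1.59-fold), each lower under every scaling, and the mean of the probes changed by -0.98.

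Within the Rbfox family the last step differed in size. Rbfox1 gained 7.04 log2 on Rbfox2 from Day4 to Day7 (132-fold), between 5.72 and 7.10 over the alternatives. Rbfox3 gained 3.86 on Rbfox2 (14.5-fold), between 3.35 and 3.97. Over ES to Day4 both lost on Rbfox2, Rbfox1 by -1.10 (between -1.10 and -0.50) and Rbfox3 by -1.68 (between -1.68 and -1.01). These are differences of changes and say nothing of which family member was more abundant.

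The 10 genes differed in how many genes had a similar profile over the 5 arrays. The likeness of a gene to another was the root mean square difference of their mean-centred levels, over the 18638 genes well above background on at least 1 array. Within a distance of 0.5 log2 of Ptbp1 lay 3736 genes, of Ptbp2 2801, of Nova2 1863, of Nova1 by its brightest probe 1227, and of Rbfox2 1184. Elavl4 had 39 genes that near, Rbfox3 37 and Elavl2 27, while Elavl3 and Rbfox1 had 0. A fixed distance holds more genes around a profile with small changes, so these counts follow in part from the size of the changes. They do not rank how common the patterns were. Nearest to Ptbp1 were Pex10 (0.04), Bckdk (0.05) and Cdk2 (0.05), and nearest to Ptbp2 were Ric8b (0.05), Ncdn (0.06) and Dram2 (0.06). Astn2 (0.09), Gdf1 (0.13) and Lemd3 (0.14) were nearest to the brightest Nova1 probe, and Efna3 (0.09), Adam12 (0.10) and Tekt4 (0.13) to Nova2.

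For the neuronal Elavl genes, profiles among the nearest were those of Runx1t1 (0.22), Nrg1 (0.24) and Mapre2 (0.31) for Elavl2, of Tubb3 (0.51) and Gpm6b (0.52) for Elavl3, and of 6330403K07Rik (0.21) and Kcnma1 (0.23) for Elavl4. Tubb3 encodes a neuronal tubulin and is in the list of neuron markers used here. Rbfox1 was nearest to Pcp4 (0.82), Fabp7 (0.85) and Resp18 (0.87), all at a distance that shows no close match. Rbfox2 was nearest to Cdc42bpa (0.05), Fam117b (0.08) and Gsk3b (0.11), and Rbfox3 to Psd (0.19), Phactr3 (0.21) and Ina (0.23). Among the 10 genes themselves the nearest pairs were Nova1 with Nova2 (0.25, by the brightest Nova1 probe), Ptbp2 with Rbfox2 (0.40) and Elavl2 with Rbfox3 (0.50).

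Other splicing regulators of neural tissue form a list of 13 genes. From ES to Day7, 9 of them rose at least 2-fold against 24.8% of all genes and 1 fell against 24.4%, with a median of 2.20 against -0.07 over all genes. With the 75th percentile 7 rose and 1 fell, against 22.0% and 32.3% of all genes. Celf6 rose by 5.09 (34.0-fold), Srrm4, which encodes the activator of neuronal microexons, by 4.52 (23.0-fold), Srrm3 by 4.50 (22.7-fold, or 1.99 log2 as the mean of its probes), and Celf3 at least 24.3-fold. Celf3 read 4.93 in ES cells, 10.58 at Day2, 5.59 at Day3, 7.10 at Day4 and 9.53 at Day7, so its highest level was on the Day2 array and not at Day7. Mbnl1 fell by 1.04 (2.05-fold), or -0.74 without normalization. Over ES to Day4 the same list had 2 rises against 17.0% of all genes, 2 falls against 14.4% and a median of 0.16, which was -1.01 without normalization. Srrm4 and Celf3 were the 2 rises, by 1.68 (3.21-fold, or 0.79 log2 without normalization) and at least 4.50-fold. The 2 falls were Celf4 with -2.09 (4.26-fold) and Celf5 with -1.47 (2.76-fold). Without normalization 1 gene of the list rose over this span against 5.55% of all genes, and 7 fell against 52.7%. In the step from Day4 to Day7, 10 rose against 18.1% of all genes and 0 fell against 18.1%, or 12 rose against 52.1% without normalization.

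The broad and epithelial regulators were read in the same way. Of 10 genes, 0 rose against 24.8% of all genes and 5 fell against 24.4% from ES to Day7, with a median of -1.05, and 1 rose as the mean over probes, Elavl1, which is also among the 5 falls. Esrp1, which drives epithelial splicing, fell by 4.39 (21.0-fold), Rbm47 by 3.56 (11.8-fold), Esrp2 by 2.58 (5.98-fold) and Rbm38 by 1.22 (2.34-fold), the last not past 2-fold without normalization (-0.93). Over ES to Day4 the median of this list was -0.32 with 2 falls against 14.4% of all genes, a share near the background, or -1.52 with 8 falls against 52.7% without normalization.

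The general splicing factors were read as the hnRNP class, to which Ptbp1 belongs, and the SR proteins. Of 16 hnRNP genes 0 rose against 24.8% of all genes and 2 fell against 24.4% from ES to Day7, with a median of -0.19, or -0.97 with the 75th percentile, where 8 fell against 32.3% of all genes. Hnrnpf fell by 1.24 (2.36-fold) and Hnrnpl by 1.16 (2.24-fold, or -0.90 without normalization). Of 12 SR protein genes 1 rose and 1 fell, against the same shares, with a median of -0.29, or 4 fell against 32.3% with a median of -0.85 with the 75th percentile. Srsf12 rose by 2.34 (5.07-fold) and Srsf7 fell by 1.07 (2.10-fold), although the mean of its probes changed by 0.12.

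**Figure D2:**
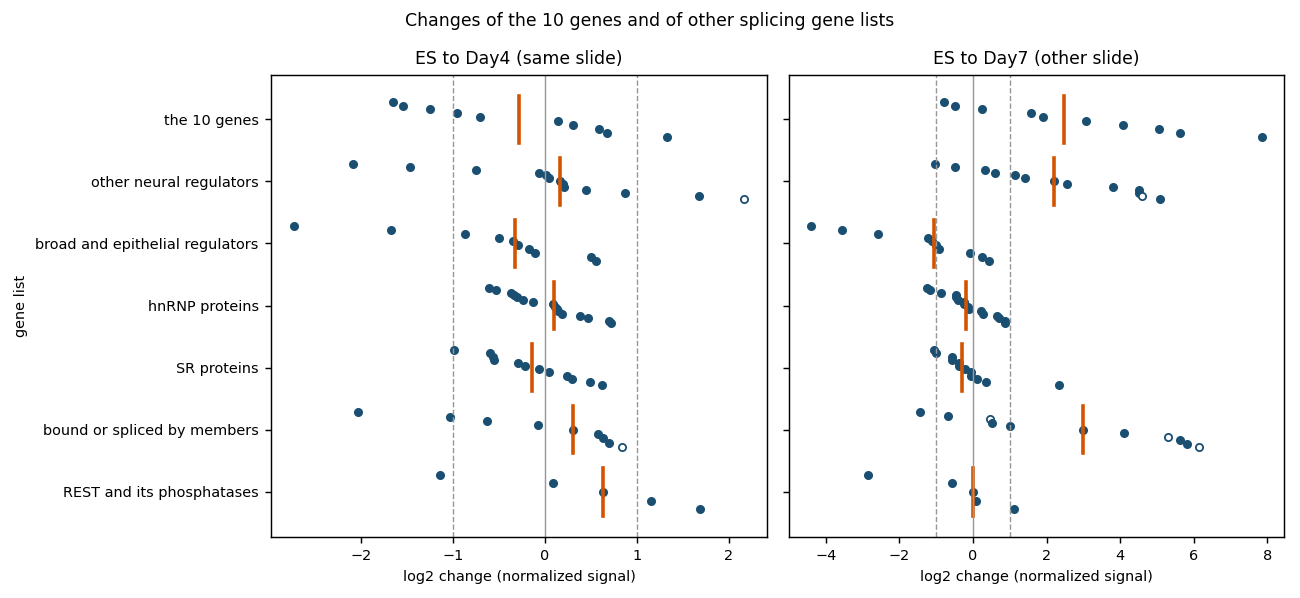
Log2 change of normalized signal (horizontal axis) from ES to Day4 and from ES to Day7 for the genes of 7 lists (vertical axis), with a point per gene, white where the change is a bound or has no fold, an orange bar at the median of a list and dashed lines at 2-fold. The medians of the 10 genes (2.49), the other neural regulators (2.20) and the genes bound or spliced (3.0) were high from ES to Day7 under every scaling, and from ES to Day4 the first of these was -0.29, while the other medians, 0.16 and 0.31, turned negative with the 75th percentile and without normalization.

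Genes whose transcripts the proteins are known to bind or splice were read only for total signal, as the probes do not separate isoforms. Of 11 with a value from ES to Day7, 7 rose against 24.8% of all genes and 1 fell against 24.4%. Their median was 3.0, or 1.84 with normexp and 2.00 with dim probes kept at their own values. With the 75th percentile 6 rose against 22.0% of all genes and 2 fell against 32.3%. Without normalization 6 rose and 2 fell as well, against 27.6% and 22.8%. Mapt rose by 5.83 (56.9-fold), Gap43, a target of HuD, by 5.63 (49.6-fold), and Glra2 at least 39.7-fold. Gap43 read 11.71 in ES cells, 11.86 at Day2, 12.45 at Day3, 11.63 at Day4 and 17.34 at Day7, its highest level. Before Day7 it did not follow Elavl4. From Day3 to Day4 Gap43 changed by -0.82 and Elavl4 by 0.90. From ES to Day4 Gap43 changed by -0.08 and Elavl4 by 1.33. Dab1 fell by 1.43 (2.69-fold), but rose by 0.54 as the mean of its 4 probes. Cacna1c was well above background only on the Day2 array and has no value. Dlg4, an outcome of PTBP repression chosen here after its values had been seen, read 5.64, 6.80, 6.43, 6.28 and 8.64 and rose by 3.0 from ES to Day7 (7.99-fold), or 1.84 with normexp.

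REST represses neuronal genes outside neurons, and Rest and the genes of its co-repressor and phosphatases form a list of 5. Rest read 13.52 in ES cells, 12.74 at Day2, 12.31 at Day3, 12.39 at Day4 and 10.67 at Day7. Its level was highest in ES cells and lowest at Day7, a fall of 2.85 (7.21-fold) that was past 2-fold under every scaling. Ctdspl rose by 1.13 (2.18-fold, or 0.87 with the 75th percentile), and the median of the list from ES to Day7 was 0.01, or -0.51 with the 75th percentile. Whether the changes of Rest and of the 10 genes are linked was not tested.

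The labelled cell types were checked against marker genes, whose part in the results was not tested. Counts of these and of the housekeeping genes below stand against 24.8% of all genes raised and 24.4% lowered from ES to Day7. Pluripotency markers fell, 6 of 8 past 2-fold from ES to Day7 with a median of -3.23, led by Pou5f1 (-4.17), Tdgf1 (-4.16), Esrrb (-3.64) and Klf4 (-3.63). Sox2 (-0.77, or -1.18 with the 75th percentile) and Nanog (-0.40) did not pass it. Nanog changed by 0.78 from ES to Day4, or by -0.17 without normalization. The summed signal of the 8 markers was 257744 in ES cells, 169752 at Day2, 120701 at Day3, 82272 at Day4 and 36878 at Day7. Dppa5a was the brightest on every array and gave most of the sum in ES cells (194834), and all 8 were still well above background at Day7. Neuron markers rose, 7 of 8 with a median of 6.11, led by Dcx (at least 11.42, at least 9.19 with normexp, and 7.51 as the mean of its probes), Nefm (7.95), Syt1 (7.18) and Map2 (6.81). Their summed signal was 30079, 19739, 15960, 22829 and 650630, with Snap25 giving the brightest signal before Day7 and Nefl at Day7, and Dcx was dim in ES cells. The 5 genes among the 10 with the largest rises at Day7, Rbfox1, Elavl4, Elavl3, Rbfox3 and Elavl2 by their brightest probes, thus rose on the array on which neuron markers rose.

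Motor neuron markers rose in 7 of 7 with a value, with a median of 5.89, led by Chat (at least 249-fold), Slc18a3 (6.98), Isl1 (6.06) and Slc5a7 (5.89). Their summed signal was 3093, 5543, 4993, 3117 and 89281, with Prph the brightest before Day7 and Slc18a3 at Day7. Floor plate markers, of a cell type that Shh also induces, rose in 4 of 4 with a median of 8.03, with Shh at least 369-fold, Foxa2 by 7.54 and Spon1 by 6.62. Their summed signal was 277, 893, 1380, 3045 and 51024, highest at Day7 like that of the motor neuron markers, with Spon1 the brightest in ES cells and Foxa2 on the other arrays, and Shh was well above background on Day7 alone. Spinal interneuron markers had 2 rises of 5, among them Gata3 (1.07), a median of 0.13, and En1 well above background on no array. Their summed signal was 603, 866, 633, 1424 and 1800, with Gata3 the brightest on all arrays but Day2, where it was Pax2.

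Neural progenitor markers had 4 rises and 2 falls of 6, with a median of 1.40, where Hes5 (5.96), Vim (3.35), Nes (1.47, or 0.85 with the 75th percentile) and Sox1 (1.33, or 0.98 as the mean of its probes) rose and Olig2 (-2.98) and Pax6 (-1.60, or -0.75 with normexp) fell. Their summed signal was 19182, 13548, 23584, 59418 and 127651, with Vim the brightest on every array. Glia markers had 1 rise and 2 falls, Mog (-1.92) and Aqp4 (-1.38, or -0.96 with normexp), of 5 with a value, with a median of 0.07 and a summed signal of 2829, 1442, 1409, 1764 and 3002. The brightest glia marker was Mog in ES cells and at Day3 and Slc1a3 at Day4 and Day7, and Gfap and S100b were dim in ES cells and at Day7. Muscle markers, read because Rbfox1 and Rbfox2 also act in muscle, had 0 rises and 3 falls of 4, Myh6 (-4.48), Ttn (-3.20) and Des (at least 5.01-fold), and a median of -2.76. Their summed signal fell from 3432 in ES cells over 2376, 1053 and 673 to 226 at Day7, with Des the brightest at Day4 and Myh6 on the others, and Myod1 and Myog were dim on every array but Day2. Ttn, Myh6 and Tnnt2 were well above background at Day7, and Tnnt2, chosen here after its values had been seen, changed by at least 0.92 from ES, or 1.01 without normalization.

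Markers of other germ layers had 1 rise, Cdh5 (at least 21.0-fold), and 4 falls, T (at least 5.86-fold), Gata4 (-1.90), Sox17 (at least 3.04-fold, or -0.68 log2 with normexp) and Pecam1 (-1.57), of 6 with a value, and Afp was well above background on no array. Their median was -1.59, or -0.92 with normexp. Their summed signal was 971, 777, 1356, 2647 and 679, led by Pecam1 in ES cells and at Day2, Sox17 at Day3, Gata6 at Day4 and Cdh5 at Day7. Of 6 housekeeping genes 0 rose and 2 fell, Hprt (-2.81) and Tbp (-1.47, or -0.88 as the mean of its probes), with a median of -0.25, or -0.92 with the 75th percentile.

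Promoter sequences are shown because 7 of the 10 genes rose together at Day7, and each window gives 300 bases around an annotated start. The RefSeq table of build GRCm38.p6 held windows for Ptbp1, Ptbp2, Nova1, Nova2, Elavl2, Elavl3, Elavl4, Rbfox1 and Rbfox3, 9 of the 10 genes, in 18 windows. The E-box CAGCTG, a letter string bound by neurogenic bHLH factors that reads the same on both strands, was in at least 1 window of 6 of these 9 genes, Ptbp1, Nova1, Elavl2, Elavl3, Elavl4 and Rbfox1, against 18.3% of 27025 genes. By window it was in 9 of 18, against 16.3% of 32851 windows, but Elavl2 has 6 windows and Elavl4 has 4, which overlap in part. A gene with more windows also has more chances to hold the E-box in at least 1 of them, which can raise the count by gene. CCAAT, read on both strands, was in 5 of 9 genes against 41.1%, GGGCGG on both strands in 5 of 9 against 38.2%, and TATAAA on both strands in 1 of 9, Elavl3, against 15.7%. The motifs were chosen after the sequences had been seen, so these counts are no test, and a match describes letters and is neither a bound site nor a cause. Ptbp1, which fell at Day7, and Nova1, which was not among the 7 raised genes, held the E-box as well. The 4 windows printed are shown for the E-box, which each holds in capitals. The other Rbfox1 window, some of the other Elavl4 windows and the only windows of Ptbp2, Nova2 and Rbfox3 hold none. The printed windows lie at chr9:22051974-22052273 on the minus strand for Elavl3 and chr4:110287478-110287777 on the minus strand for Elavl4. Those of Rbfox1 and Ptbp1 lie at chr16:7069585-7069884 and chr10:79854182-79854481, both on the plus strand.
Elavl3: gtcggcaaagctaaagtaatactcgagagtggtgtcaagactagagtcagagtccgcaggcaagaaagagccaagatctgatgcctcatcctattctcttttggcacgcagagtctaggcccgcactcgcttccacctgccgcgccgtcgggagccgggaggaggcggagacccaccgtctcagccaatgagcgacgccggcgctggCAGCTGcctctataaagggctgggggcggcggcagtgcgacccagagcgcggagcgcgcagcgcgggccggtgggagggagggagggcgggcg
Elavl4: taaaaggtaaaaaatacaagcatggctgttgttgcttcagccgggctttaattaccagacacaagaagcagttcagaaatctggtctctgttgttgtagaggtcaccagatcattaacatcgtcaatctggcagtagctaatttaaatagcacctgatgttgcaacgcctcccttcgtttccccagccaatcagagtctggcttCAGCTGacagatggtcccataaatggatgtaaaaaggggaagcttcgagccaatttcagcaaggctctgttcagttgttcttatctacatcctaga
Rbfox1: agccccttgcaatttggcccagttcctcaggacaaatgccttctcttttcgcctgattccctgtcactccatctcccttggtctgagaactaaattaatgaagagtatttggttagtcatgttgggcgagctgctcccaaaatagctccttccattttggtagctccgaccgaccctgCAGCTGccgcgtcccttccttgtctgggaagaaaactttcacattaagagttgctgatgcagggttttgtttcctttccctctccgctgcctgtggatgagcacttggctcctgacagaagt
Ptbp1: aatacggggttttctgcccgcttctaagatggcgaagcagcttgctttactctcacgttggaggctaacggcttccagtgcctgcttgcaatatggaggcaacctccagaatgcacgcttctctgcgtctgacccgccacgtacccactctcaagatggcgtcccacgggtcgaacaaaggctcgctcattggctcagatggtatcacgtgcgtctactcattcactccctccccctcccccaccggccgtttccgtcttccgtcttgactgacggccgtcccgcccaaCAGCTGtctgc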

How the data were processed

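Cy3-labelled RNA was hybridized to Agilent SurePrint mouse gene expression arrays, and per the file headers the authors read each spot's intensity with Feature Extraction 10.5.1. The background-subtracted intensity was taken as log2 after control spots and spots called outliers had been dropped (8 probes with every spot an outlier on some array kept all spots), averaged per probe and quantile-normalized over the 5 arrays with limma 3.58.1 in R 4.3.3. Tables were made with Python 3.11.15, numpy 2.4.6 and pandas 2.3.3, and figures with matplotlib 3.10.9. Transcript accessions of 26300 of 55681 mouse probes (47.2%) matched a RefSeq gene symbol, and 5339 of the 19897 genes had more than 1 probe. No probe was matched to Mnx1 or Srsf11, which are not analysed here.

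The authors' deposited table holds log2 values for which, as checked on the files, the median background-subtracted signal over a probe's spots is taken minus the array's 75th percentile. Its column medians were -3.55 for ES, -2.62 for Day2, -3.72 for Day3, -3.54 for Day4 and -3.67 for Day7, and more than 99.3% of entries on each array lay within 0.01 of this form. What the authors did with the remaining entries is not known. Normalization steps cannot recover whether total RNA per cell changed.

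The rule of size was 2-fold. Alternatives were a shift to the 75th percentile, no normalization, normexp background correction of median spot signals with an offset of 50 and then quantiles, the deposited table, another detection mark of the scanner software, dim probes kept at their own values, dim probes left out on either array, the mean over a gene's probes, and a rule of 1.5-fold or of 4-fold. Chosen after the data had been seen were a floor at the 95th percentile of the ERCC probes, the dimmest probe of each gene, quantiles without Day2 or without Day7, the ES to Day4 comparison and the promoter motifs. Genes with no fold entered list medians as 0 and genes dim on both arrays were left out. The calculation was tested on simulated data.

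The 10 genes and the other lists were chosen with earlier results of these data known. All 10 genes were named with every probe, and from each other list up to 4 rises and up to 4 falls, the largest from ES to Day7 past 2-fold, plus genes well above background on no array. Likeness was read for the 3 nearest genes. A few genes that these rules name are not reported here.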

Additional observations from a re-analysis of the deposited data

How the results depend on the processing

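The counts of 7 genes raised from Day4 to Day7 and from ES to Day7 lay between 5 and 9 under every alternative run. Elavl2, Elavl3, Elavl4, Rbfox1 and Rbfox3 were among the raised genes in each of them. At 4-fold both counts were 5, against 8.76% and 12.9% of all genes, and with the dimmest probe Rbfox2 left the 7 and Nova1 entered.

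Other counts moved, and except where a threshold was changed the cause was not tested. With the 75th percentile, and likewise in the deposited table, ES to Day2 had 0 falls, Day3 to Day4 had 2 rises and ES to Day7 had 1 fall. In this order the shares over all genes were 7.01%, 4.38% and 32.3% with the 75th percentile. They were 7.03%, 4.38% and 32.2% in the deposited table. Without normalization ES to Day2 had 0 falls against 4.25% of all genes, and Day3 to Day4 had 1 fall against 9.96%. Under the same setting Day4 to Day7 had 0 falls against 3.33%, and ES to Day7 had 1 fall against 22.8%. ES to Day4 then had 0 rises against 5.55% and 5 falls against 52.7%. With the mean over probes ES to Day2 had 2 falls against 11.3% of all genes, and Day2 to Day3 had 1 rise against 13.8% and 2 falls against 7.06%. Day3 to Day4 then had 2 rises against 3.55%, and ES to Day7 had 1 fall against 23.5%. With the dimmest probe ES to Day2 had 2 falls, Day2 to Day3 had 1 rise and 2 falls, Day3 to Day4 had 2 rises, ES to Day7 had 1 fall, and ES to Day4 had 2 rises and 1 fall. With the ERCC floor ES to Day2 had 0 falls. Shares over all genes were not computed with the dimmest probe or the ERCC floor, so nothing is read from these counts.

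At 1.5-fold ES to Day2 had 1 rise against 17.5% of all genes and 3 falls against 19.3%, and Day2 to Day3 had 1 rise against 22.4%. Day3 to Day4 had 3 rises against 7.26% and 1 fall against 9.85%, ES to Day7 had 1 fall against 35.5%, and ES to Day4 had 3 rises against 28.7% and 5 falls against 24.4%. At 4-fold Day2 to Day3 had 0 falls against 2.93%, Day3 to Day4 had 0 rises against 0.934%, Day4 to Day7 had 0 falls against 4.36%, and ES to Day4 had 0 rises against 5.19% and 0 falls against 4.10%.

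Among changes of the 10 genes and list medians past 2-fold, these turned direction. Nova1 changed by 0.39 from Day2 to Day3 and by 0.38 from ES to Day4 as the mean of its probes, and by 2.23 and 2.00 with its dimmest probe. Elavl2 changed by 0.024 from Day2 to Day3 with its dimmest probe. The median of the muscle markers from ES to Day4 was 0.21 when dim probes were not filtered and 1.60 with the dimmest probe. Of the changes of the 10 genes under an alternative, 600 kept their direction and their side of 2-fold. A further 24 came to pass it without a change of sign, 13 no longer passed it, and 5 past 2-fold reversed. The other 33 were below 2-fold and changed sign, some of them past 2-fold in the other direction. Nova1 from ES to Day7 was such a case, with -0.49 by its brightest probe and 2.62 as the mean of its probes.

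No paired analysis was possible because there is 1 array per time point, and for the same reason no array was left out within a time point and no spread between samples is known. No term for the slide was fitted, as Day7 is alone on its slide. Quantiles without the Day7 array give no value for comparisons with Day7, and quantiles without Day2 none for the steps around Day2. Signal over background limits the dim probes of Rbfox1, Rbfox3 and Elavl4 before Day7, whose folds depend on the floor.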
